A study of Mus musculus with 12 samples.

Results

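The genes of sugar breakdown and of the response to low oxygen were followed through early and late biopsies of colon tumors in mice. The set was given by name and held 40 genes: glucose and lactate transporters, the enzymes of glycolysis and their regulators, the subunits and oxygen sensors of the hypoxia-inducible factors, and genes that respond to hypoxia. A gene counted as measured where a probe set of the array carried its symbol and no other. Where a gene had several such probe sets, the one with the highest mean over the 12 arrays stands for it. By that rule 37 of the 40 were measured, out of 19938 genes in all. Gapdh was on 25 probe sets that all carried further symbols, and Gpi1 and Eno1 were named by 0 probe sets, so these 3 genes have no values here.

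The tumors came from 6 F1 mice of the cross SWR x C57BL/6 that were Apc Min/+ in every group, with 1 mutated copy of Apc, a suppressor of Wnt signalling whose loss starts intestinal adenomas. All had received 2 treatments of 4% dextran sodium sulfate, which damages the lining of the colon, around weaning, so no untreated mouse and no normal colon stands beside them. One tumor per mouse was biopsied through the colonoscope, and its late and its early biopsy were hybridised to 1 Affymetrix array each, 12 arrays in all. The late biopsy was read as intramucosal carcinoma, a cancer still inside the mucosa, in mice 2201, 3407 and 3413, and as adenoma, its benign precursor, in mice 1755, 1803 and 1805. The labels give no pathology for early biopsies, so each was placed with the final reading of its tumor. Mice were 280.0 ± 82.5 days old at the late biopsy and 94.3 ± 11.8 days old at the early one (SD, n = 6 each). Late carcinoma biopsies were taken at 200, 215 and 267 days and late adenoma biopsies at 234, 369 and 395 days, so age and pathology are not separate in the late samples. Each pathology holds 1 female and 2 male mice. Values are deposited log2 intensities, on which a difference of 1 is a doubling, and the number of arrays limits their precision. The array median lay between 7.62 and 7.80. The median correlation of an array with the others was lowest, at 0.964, for the late biopsy of mouse 1805 and lay between 0.975 and 0.987 for the remaining arrays. Of the 10 epithelial markers on the list, among them Epcam, Krt8 and Cdx2, all were measured, and their summed level lay between 16.08 and 16.13 in late carcinoma biopsies and between 16.18 and 16.59 in late adenoma biopsies, against 16.02 to 16.30 and 16.27 to 16.40 in the early biopsies of the same mice. A biopsy mixes tumor cells with vessels, stroma and leukocytes, and in such bulk samples fewer cells of a type and less RNA per cell cannot be told apart.

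Glycolysis splits glucose into pyruvate in the cytosol, and cells that lack oxygen turn that pyruvate into lactate and export it. Hypoxia-inducible factors are pairs of an oxygen-labile alpha subunit and a stable partner. With oxygen present, prolyl hydroxylases of the Egln family mark the alpha subunit for destruction, and without it the factor binds a short core motif near its target genes, among them glucose transporters, most glycolytic enzymes, lactate dehydrogenase A and Bnip3. Many tumors also run glycolysis with oxygen present.

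The set did not move as 1 block from early to late: its direction differed between tumors. Of the 37 measured members, 11 were higher and 26 lower in the late biopsy than in the early one in mouse 2201, 21 higher and 16 lower in mouse 3407, and 24 higher and 13 lower in mouse 3413, the 3 carcinoma mice. In the adenoma mice, 10 were higher and 27 lower in mouse 1755, 24 higher and 13 lower in mouse 1803, and 32 higher and 5 lower in mouse 1805. The median change over the members was -0.13, 0.06 and 0.10 in mice 2201, 3407 and 3413, and -0.21, 0.10 and 0.51 in mice 1755, 1803 and 1805. Over all genes it was -0.09, 0.01 and -0.01, and 0.00, -0.03 and -0.02, in the same order. Of all genes 64.9%, 47.4% and 53.0% were lower late in the carcinoma mice, and 49.8%, 55.7% and 52.8% in the adenoma mice. In mouse 2201 the members, 70.3% of them lower, thus lay near all genes. The strongest shifts in both directions, those of mice 1805 and 1755, thus stood within the adenoma group. The 5 members lower late in mouse 1805 were Ldhb, Aldoc, Pfkm, Hk1 and Slc16a1, and the member with the highest change in mouse 1755 was Epas1, at 1.47. For Hk1 this holds for the kept probe set alone, and its other probe set was higher late in mouse 1805 by 0.71.

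**Figure D1:**
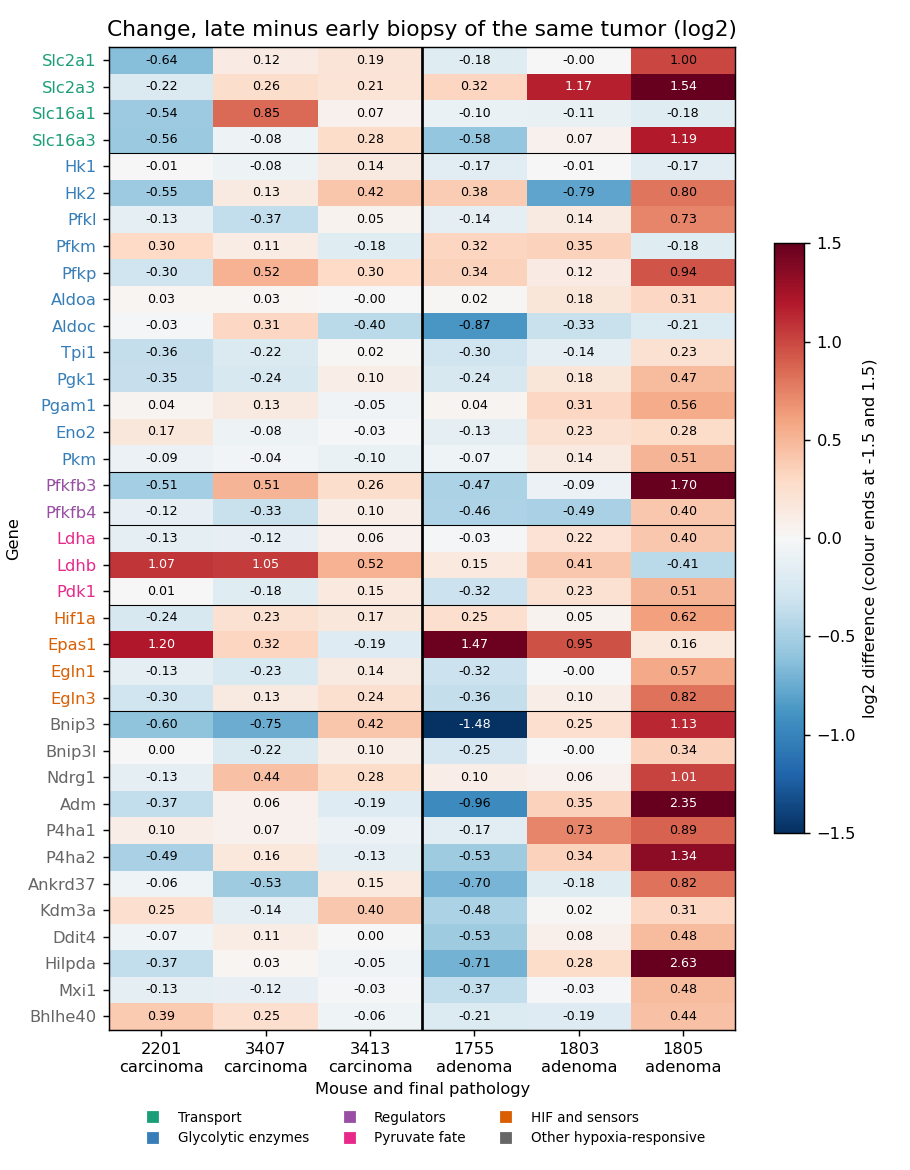
Change of each of the 37 measured members from early to late biopsy (log2 difference, colour and number) in each of the 6 tumors, carcinoma mice left of the line and adenoma mice right of it, with genes grouped and coloured by role. The column of mouse 1805 is mostly red, with 32 of 37 members higher in the late biopsy, and that of mouse 1755 mostly blue, with 27 of 37 lower.

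No member passed an adjusted p of 0.05 (limma, Benjamini-Hochberg over all 19938 genes) in any of the 6 comparisons made. Over all 6 tumors, late against early, 0 of 37 members were called, against 0% of all genes. At an unadjusted p under 0.05, 3 members were higher in late biopsies (Epas1, Ldhb and Slc2a3), beside a background of 5.68% of all genes, and 0 were lower, beside a background of 9.06%. In 6 of 6 pairs the same way, 0 members were higher and 0 lower, while 2.59% and 5.18% of all genes were. In carcinoma tumors 0 of 37 members were called, as were 0% of all genes. At the unadjusted p, 1 member was higher late in carcinoma tumors (Ldhb; background 1.7%) and 0 were lower (background 2.61%). In all 3 carcinoma pairs alike, 1 was higher (Ldhb; background 9.73%) and 2 were lower (Mxi1 and Pkm; background 16.9%). In adenoma tumors 0 of 37 members were called against 0.125% of all genes, which were 25 genes. At the unadjusted p, 4 members were higher late in adenoma tumors (Epas1, P4ha1, Pgam1 and Slc2a3; background 7.38%) and 1 was lower (Aldoc; background 10.7%). The 4 became 11 without mouse 1755 (all genes 5.12%), 7 after quantile normalisation (7.18%) and 2 with the arrays of the comparison alone (6.14%). In all 3 adenoma pairs alike, 7 members were higher (Aldoa, Epas1, Hif1a, Ndrg1, Pfkp, Pgam1 and Slc2a3), a share of 18.9% against 17% of all genes, and 3 were lower (Aldoc, Hk1 and Slc16a1), a share of 8.11% against 22.4%. For Hk1 and Pgam1 this rests on the kept probe set. The other Hk1 probe set changed by 0.34, 0.00 and 0.71 in mice 1755, 1803 and 1805. The other Pgam1 probe sets changed by 0.00 in mouse 1755.

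The late biopsy of mouse 1805 had the highest value of the 12 arrays in 28 of the 37 members and the lowest in 3, whereas over all genes it was the highest in 14.6% and the lowest in 22.7%. The next array by this count, the late biopsy of mouse 1803, was the highest in 3 members. Relative to the mean of each member over the arrays, the median member stood 0.56 higher in the late biopsy of mouse 1805, and between -0.18 and 0.14 on the 11 other arrays. Where leaving out mouse 1805 moved a single gene's difference printed here by over 1.5 times or turned its sign, the value without that mouse is given beside it. The same holds for the median over all 37 members. Medians of smaller lists, and differences on probe sets that were not kept, are given without such a recalculation.

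In the values that follow, ± after a difference is its SE from limma, and 3 values in a row stand for mice 2201, 3407 and 3413 in carcinoma groups and for mice 1755, 1803 and 1805 in adenoma groups. Levels are log2 intensities, and a level is not comparable between genes, because each gene has its own probes.

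Of the 4 transporters, all lay lower in late carcinoma than in late adenoma biopsies by their group means over all mice. This did not hold for all of them without mouse 1805. The late difference of Slc2a3 was -0.30 with that mouse and 0.22 without it, and that of Slc16a3, given below, also turned positive. Changes of the transporters from early to late were spread over both directions. Slc2a1, the widely expressed glucose transporter that hypoxia-inducible factors induce, stood at 12.06, 12.60 and 12.70 in late carcinoma biopsies and 12.82, 12.72 and 13.84 in late adenoma biopsies. Early biopsies had 12.70, 12.48 and 12.51 in carcinoma mice and 12.99, 12.72 and 12.85 in adenoma mice. The carcinoma arrays lay below every adenoma array at both times, each time with 12.70 as the highest carcinoma and 12.72 as the lowest adenoma value, and the late array of mouse 1805 was far above the rest. The late difference, carcinoma minus adenoma, was -0.67 ± 0.285, a ratio of 0.627 (limma, unadjusted p = 0.0387, adjusted p = 0.416). Without mouse 1805 it was -0.31 (adjusted p = 0.999). Slc2a3, the high-affinity glucose transporter known from neurons and leukocytes, had 8.10, 8.15 and 8.27 in late carcinoma biopsies and 7.61, 8.30 and 9.49 in late adenoma biopsies. In early biopsies it had 8.32, 7.89 and 8.05 in carcinoma mice and 7.29, 7.13 and 7.95 in adenoma mice. Its changes were -0.22, 0.26 and 0.21 in the carcinoma pairs and 0.32, 1.17 and 1.54 in the adenoma pairs, where every pair was higher late. The mean change in adenoma tumors was 1.01 ± 0.225 (limma, unadjusted p = 0.0032, adjusted p = 0.113). The change in carcinoma minus that in adenoma was -0.93 ± 0.318 (adjusted p = 0.649). The neutrophil markers moved beside it: their median change was -0.63, 0.10 and 0.71 in the carcinoma tumors, against 0.94, 1.28 and 2.44 in the adenoma tumors. Their summed level changed by -0.81, 0.21 and 0.77 in the carcinoma and by 0.92, -0.05 and 1.22 in the adenoma tumors, so in mouse 1803 Slc2a3 was higher late by 1.17 beside a change of -0.05 in the summed markers. Their part in the Slc2a3 values was not tested.

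The lactate carriers did not separate the groups. Slc16a1, a carrier that moves lactate in or out of cells, was at 10.33, 10.28 and 9.90 in late carcinoma biopsies and 10.66, 9.88 and 10.76 in late adenoma biopsies. Early arrays read 10.87, 9.44 and 9.83 in carcinoma mice and 10.76, 9.99 and 10.95 in adenoma mice. The groups overlapped at both times, and mouse 3407 stood apart with a change of 0.85. Slc16a3, the export carrier of glycolytic cells, was at 11.21, 11.42 and 11.92 in late carcinoma biopsies and 11.16, 11.81 and 12.24 in late adenoma biopsies. The early levels were 11.77, 11.50 and 11.65 in carcinoma mice and 11.73, 11.75 and 11.05 in adenoma mice. Its change was positive in mice 3413, 1803 and 1805, with 1.19 in mouse 1805, and negative in the other three. Late carcinoma minus late adenoma was -0.22 ± 0.32 (adjusted p = 0.831, limma), within the spread between mice, and 0.03 without mouse 1805.

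**Figure D2:**
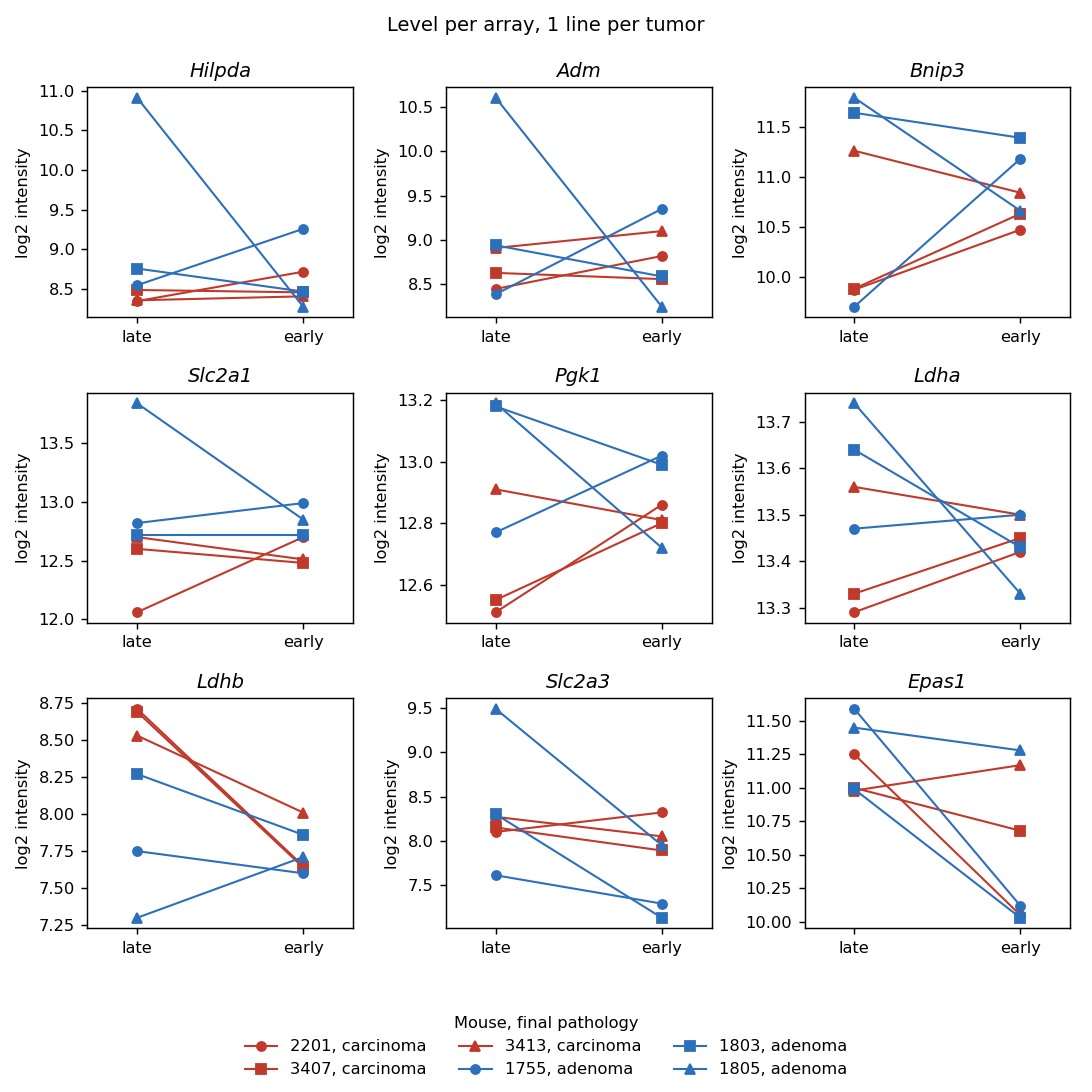
Level of 9 members on each of the 12 arrays (log2 intensity), late biopsy at the left and early biopsy at the right of each panel, with 1 line per tumor, carcinoma mice in red and adenoma mice in blue. The late biopsy of mouse 1805 stands at the top for Hilpda, Adm, Bnip3, Slc2a1, Pgk1, Ldha and Slc2a3 and at the bottom for Ldhb, and Bnip3 splits the late biopsies into a low and a high group that crosses the pathologies.

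Among the 12 measured glycolytic enzymes, 8 were lower and 4 higher in late carcinoma than in late adenoma biopsies, with a median difference of -0.19. From early to late the list's median was 0.01 in carcinoma and 0.15 in adenoma tumors. The adenoma pairs alone had list medians of -0.10, 0.14 and 0.39, the last in mouse 1805. The hexokinases phosphorylate glucose on entry. Hk2, the isoform of glycolytic tumors, was at 10.59, 10.76 and 10.50 in late carcinoma biopsies and 11.12, 10.39 and 11.65 in late adenoma biopsies. Early biopsies had 11.13, 10.63 and 10.07 in carcinoma mice and 10.75, 11.18 and 10.85 in adenoma mice. Its changes were -0.55, 0.13 and 0.42 in carcinoma pairs and 0.38, -0.79 and 0.80 in adenoma pairs, so neither pathology had a common direction. Hk1, the general isoform, was at 13.50, 13.37 and 13.45 in late carcinoma biopsies and 13.40, 13.47 and 13.28 in late adenoma biopsies. The early levels were 13.50, 13.46 and 13.32 in carcinoma mice and 13.57, 13.48 and 13.45 in adenoma mice. Its values are uncertain: the other probe set of Hk1 correlated with the kept one at -0.552 over the arrays and gave changes of -0.13, 0.24 and 0.04 in carcinoma pairs and 0.34, 0.00 and 0.71 in adenoma pairs.

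Phosphofructokinase carries out the committed step. Its liver isoform Pfkl had 10.58, 10.35 and 11.09 in late carcinoma biopsies and 10.84, 11.11 and 11.49 in late adenoma biopsies. Early biopsies had 10.71, 10.72 and 11.04 in carcinoma mice and 10.98, 10.96 and 10.75 in adenoma mice. Late carcinoma was lower by group mean, -0.47 ± 0.206 (unadjusted p = 0.0445, adjusted p = 0.423, limma), although mouse 3413 reached the level of mouse 1803. Without mouse 1805 the difference was -0.30. The platelet isoform Pfkp had 10.11, 10.16 and 10.49 in late carcinoma biopsies and 10.79, 10.26 and 11.44 in late adenoma biopsies. Its early levels were 10.41, 9.64 and 10.19 in carcinoma mice and 10.44, 10.14 and 10.49 in adenoma mice. It was higher late in 5 of 6 pairs, mouse 2201 being the exception, with a mean change of 0.32 ± 0.143 over all tumors (adjusted p = 0.355) and of 0.20 without mouse 1805. The muscle isoform Pfkm had 8.77, 8.23 and 8.29 in late carcinoma biopsies and 8.46, 8.46 and 8.08 in late adenoma biopsies. The early levels were 8.47, 8.12 and 8.47 in carcinoma mice and 8.13, 8.11 and 8.26 in adenoma mice. Here mouse 1805 was the lowest late array, the reverse of Pfkl and Pfkp.

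Aldolase and triose phosphate isomerase act next. Aldoa, the main aldolase of proliferating tissue, lay between 12.91 and 13.17 in late carcinoma and between 13.10 and 13.37 in late adenoma biopsies, and its late difference was -0.23 ± 0.101 (unadjusted p = 0.0447, adjusted p = 0.423). From early to late it changed by 0.03, 0.03 and 0.00 in carcinoma and by 0.02, 0.18 and 0.31 in adenoma pairs. Aldoc, the brain-type aldolase, was at 10.12, 9.98 and 10.19 in late carcinoma biopsies and 9.70, 10.25 and 9.88 in late adenoma biopsies. In early biopsies it was at 10.15, 9.67 and 10.59 in carcinoma mice and 10.57, 10.58 and 10.09 in adenoma mice. Every adenoma pair was lower late, with a mean change of -0.47 ± 0.17 (unadjusted p = 0.0293, adjusted p = 0.226, limma), the opposite direction to Aldoa. Tpi1 had 12.12, 12.16 and 12.35 in late carcinoma biopsies and 12.27, 12.45 and 12.78 in late adenoma biopsies. Early arrays read 12.48, 12.37 and 12.33 in carcinoma mice and 12.57, 12.59 and 12.55 in adenoma mice. It was lower late in 4 of 6 pairs, and late carcinoma minus late adenoma was -0.29 ± 0.129 (unadjusted p = 0.0468), with mouse 3413 inside the adenoma range, and -0.15 without mouse 1805.

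The lower steps of the pathway make ATP and pyruvate. Pgk1, the first ATP-making enzyme, stood at 12.51, 12.55 and 12.91 in late carcinoma biopsies and 12.77, 13.18 and 13.19 in late adenoma biopsies. Early biopsies had 12.86, 12.80 and 12.81 in carcinoma mice and 13.02, 12.99 and 12.72 in adenoma mice. Mice 2201, 3407 and 1755 were lower late and mice 3413, 1803 and 1805 higher, a split that runs across the pathologies. Late carcinoma minus adenoma was -0.39 ± 0.153 (unadjusted p = 0.0276, adjusted p = 0.409, limma). Pgam1, phosphoglycerate mutase, had 12.57, 12.66 and 12.83 in late carcinoma biopsies and 12.66, 12.95 and 12.89 in late adenoma biopsies. The early levels were 12.54, 12.53 and 12.88 in carcinoma mice and 12.62, 12.64 and 12.33 in adenoma mice. It was higher late in the 3 adenoma pairs, on average by 0.30 ± 0.108 (unadjusted p = 0.0268, adjusted p = 0.22), and by 0.18 in mice 1755 and 1803 alone. In mouse 1755 the change was 0.04 on the kept probe set and 0.00 on the other probe sets of Pgam1. Eno2, the neuronal enolase, had 7.63, 7.51 and 7.85 in late carcinoma biopsies and 7.41, 7.59 and 7.88 in late adenoma biopsies. Early arrays gave 7.45, 7.59 and 7.88 in carcinoma mice and 7.54, 7.36 and 7.61 in adenoma mice, with overlap at both times. Pkm, pyruvate kinase, had 12.54, 12.50 and 12.64 in late carcinoma biopsies and 12.42, 12.74 and 12.80 in late adenoma biopsies. Its early levels were 12.63, 12.54 and 12.74 in carcinoma mice and 12.49, 12.60 and 12.29 in adenoma mice. Each carcinoma pair was slightly lower late, and the adenoma pairs moved both ways, by -0.07, 0.14 and 0.51. For Pgk1, Pgam1 and Pkm the further probe sets of the gene correlated with the kept one at 0.932 or more over the arrays. Several glycolytic enzymes have processed copies elsewhere in the genome, and whether probes also bind transcripts of such copies was not tested.

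The regulators Pfkfb3 and Pfkfb4 make fructose 2,6-bisphosphate, the activator of phosphofructokinase. Pfkfb3, the inducible and pro-glycolytic form, had 9.35, 9.77 and 9.62 in late carcinoma biopsies and 8.96, 9.51 and 10.61 in late adenoma biopsies. Early biopsies had 9.86, 9.26 and 9.36 in carcinoma mice and 9.43, 9.60 and 8.91 in adenoma mice. The late array of mouse 1805 was the highest and its early array the lowest of all, a change of 1.70, while the other changes lay between -0.51 and 0.51. Pfkfb4 had 8.23, 7.88 and 8.12 in late carcinoma biopsies and 8.06, 7.82 and 8.97 in late adenoma biopsies. On early arrays it had 8.35, 8.21 and 8.03 in carcinoma mice and 8.52, 8.31 and 8.57 in adenoma mice. It was lower late in 4 of 6 tumors, including mice 1755 and 1803, and higher in mice 3413 and 1805.

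The fate of pyruvate gave the sharpest contrast of the set. Ldhb, the lactate dehydrogenase subunit of oxidative tissues, favours turning lactate back into pyruvate, while Ldha, a hypoxia target, favours making lactate. Ldhb was at 8.71, 8.69 and 8.53 in late carcinoma biopsies and 7.75, 8.27 and 7.30 in late adenoma biopsies. Early biopsies had 7.65, 7.64 and 8.01 in carcinoma mice and 7.60, 7.86 and 7.71 in adenoma mice. All 3 late carcinoma arrays lay above all 3 late adenoma arrays and above all 6 early arrays, and the late array of mouse 1805 was the lowest of the 12. From early to late it was higher by 1.07, 1.05 and 0.52 in the carcinoma pairs, a mean of 0.88 ± 0.177 or a ratio of 1.84 (limma, unadjusted p = 0.00183, adjusted p = 0.952). The adenoma pairs gave 0.15, 0.41 and -0.41, a mean of 0.05 ± 0.177 and of 0.28 without mouse 1805. The test of the difference between these changes gave 0.83 ± 0.25 (unadjusted p = 0.0135, adjusted p = 0.621). Late carcinoma against late adenoma was 0.87 ± 0.21, a ratio of 1.83 (unadjusted p = 0.00178, adjusted p = 0.401), and the early difference was 0.04 ± 0.21. With mouse 1803 left out, the late difference was 1.12 and passed the threshold (adjusted p = 0.0235), and without mouse 1805 it was 0.63 (adjusted p = 0.893). The second probe set of Ldhb followed the kept one at r = 0.874 and gave a late difference of 0.93, with changes of 0.65, 0.62 and 0.31 in carcinoma pairs and 0.03, -0.01 and -0.66 in adenoma pairs.

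Ldha and Pdk1 leaned the other way. Ldha had 13.29, 13.33 and 13.56 in late carcinoma biopsies and 13.47, 13.64 and 13.74 in late adenoma biopsies. Early arrays gave 13.42, 13.45 and 13.50 in carcinoma mice and 13.50, 13.43 and 13.33 in adenoma mice. Late carcinoma was -0.22 ± 0.101 relative to late adenoma (unadjusted p = 0.0505, adjusted p = 0.426, limma), with mouse 3413 above mouse 1755. Pdk1, the kinase that shuts pyruvate dehydrogenase and keeps pyruvate out of mitochondria, had 9.20, 8.94 and 9.64 in late carcinoma biopsies and 9.42, 9.92 and 10.18 in late adenoma biopsies. Early biopsies had 9.19, 9.12 and 9.50 in carcinoma mice and 9.74, 9.70 and 9.66 in adenoma mice. The early arrays of the carcinoma mice lay below those of the adenoma mice, while the late groups overlapped, because mouse 3413 exceeded mouse 1755. The late difference was -0.58 ± 0.207 (unadjusted p = 0.0181, adjusted p = 0.402) and the early one -0.43 ± 0.207 (unadjusted p = 0.0637, adjusted p = 0.448).

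Promoters are shown because the set is built around the hypoxia-inducible factors, whose core motif is ACGTG or GCGTG. Nothing in these data tests whether the factors act on them. The sequences are from RefSeq on GRCm38.p6, run from 250 bases before to 50 bases after an annotated start site on the gene's own strand, and carry the core in capitals on either strand, so that CACGT and CACGC mark it on the opposite strand. In CACGTG, the E-box that other factors also bind, the core is counted on both strands. Ldha, the lactate-making subunit (chr7:46845554-46845853, plus strand), has 7 matches in this window, 5 of ACGTG and 2 of GCGTG. The window of another annotated start of Ldha (chr7:46846832-46847131) has 2, both of GCGTG. Ldhb, whose late levels ran opposite to those of Ldha (chr6:142507908-142508207, minus strand), has 1.
Ldha: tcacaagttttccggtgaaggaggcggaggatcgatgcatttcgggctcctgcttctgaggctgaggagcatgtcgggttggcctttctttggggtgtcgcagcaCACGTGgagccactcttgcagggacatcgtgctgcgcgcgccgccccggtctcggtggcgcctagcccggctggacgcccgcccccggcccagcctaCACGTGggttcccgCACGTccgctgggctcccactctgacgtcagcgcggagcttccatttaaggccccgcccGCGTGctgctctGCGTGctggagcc
Ldhb: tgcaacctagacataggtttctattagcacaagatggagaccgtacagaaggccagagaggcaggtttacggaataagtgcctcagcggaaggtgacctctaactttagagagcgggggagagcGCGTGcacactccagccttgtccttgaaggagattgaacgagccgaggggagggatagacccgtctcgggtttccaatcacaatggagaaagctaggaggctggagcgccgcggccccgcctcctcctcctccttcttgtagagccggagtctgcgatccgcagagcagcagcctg

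The matching windows of Slc2a1 (chr4:119108495-119108794, plus strand), Bnip3 (chr7:138909457-138909756, minus strand) and the second annotated start of Hilpda (chr6:29272376-29272675, plus strand) hold 2, 5 and 3 matches. They belong to the member that kept the pathologies apart at both times, to one that split the late biopsies across the pathologies, and to the one with the highest single change. The window of the first annotated start of Hilpda (chr6:29272238-29272537) has 1, of GCGTG.
Slc2a1: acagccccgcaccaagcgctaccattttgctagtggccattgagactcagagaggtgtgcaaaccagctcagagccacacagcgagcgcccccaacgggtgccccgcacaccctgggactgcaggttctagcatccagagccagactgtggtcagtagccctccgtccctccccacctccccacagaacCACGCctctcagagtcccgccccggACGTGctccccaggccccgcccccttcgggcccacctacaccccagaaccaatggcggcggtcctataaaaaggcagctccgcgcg
Bnip3: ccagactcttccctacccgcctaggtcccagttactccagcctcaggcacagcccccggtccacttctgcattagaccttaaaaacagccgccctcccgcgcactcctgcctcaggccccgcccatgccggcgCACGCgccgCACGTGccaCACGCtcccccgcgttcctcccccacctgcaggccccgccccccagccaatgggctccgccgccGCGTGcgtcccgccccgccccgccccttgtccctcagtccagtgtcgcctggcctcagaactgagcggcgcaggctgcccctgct
Hilpda: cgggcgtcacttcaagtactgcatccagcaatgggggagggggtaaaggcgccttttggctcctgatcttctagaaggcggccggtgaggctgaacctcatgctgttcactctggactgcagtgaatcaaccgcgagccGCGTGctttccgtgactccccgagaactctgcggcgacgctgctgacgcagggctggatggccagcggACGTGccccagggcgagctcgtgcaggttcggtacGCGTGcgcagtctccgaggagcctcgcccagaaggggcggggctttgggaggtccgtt

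Promoters were found for 35 of the 40 members, with 53 start sites. Of these 53 windows 42 held at least 1 core, 79.2% against 43.8% of all 32851 windows of the same length. ACGTG was in 28 of them (19.6% of all windows) and GCGTG in 30 (32.4% of all windows). The E-box CACGTG, which contains ACGTG, was in 11.3% of the members' windows and 7.15% of all. Some windows of the same gene overlap, such as those of the Hilpda starts above, so a match can count more than once. The share over all windows was not matched to the members for base composition. A match of this length is a description of the letters and not a binding site, and several members were put on the list as known hypoxia targets.

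The 4 subunits and sensors of the hypoxia-inducible factors had a median change of 0.14 over all tumors, with a mean at or above 0 for each, and all 4 were lower in late carcinoma than in late adenoma biopsies by group mean. Hif1a, the alpha subunit found in most cells, had 12.24, 12.67 and 12.45 in late carcinoma biopsies and 12.69, 12.27 and 12.88 in late adenoma biopsies. Early biopsies had 12.48, 12.44 and 12.27 in carcinoma mice and 12.44, 12.22 and 12.27 in adenoma mice. It was higher late in 5 of 6 pairs, mouse 2201 being the exception, with a mean of 0.18 ± 0.102 (adjusted p = 0.446, limma), and of 0.09 without mouse 1805. Epas1, the alpha subunit characteristic of endothelium, had 11.25, 11.00 and 10.98 in late carcinoma biopsies and 11.59, 10.99 and 11.45 in late adenoma biopsies. Its early levels were 10.05, 10.68 and 11.17 in carcinoma mice and 10.12, 10.03 and 11.28 in adenoma mice. The late arrays were all between 10.98 and 11.59, while the early ones split into a low group near 10 (mice 2201, 1755 and 1803) and a higher one (mice 3407, 3413 and 1805). The change over all tumors was 0.65 ± 0.22 (unadjusted p = 0.0191, adjusted p = 0.274), and in adenoma tumors 0.86 ± 0.312 (adjusted p = 0.226). The median change of 11 endothelial markers was 1.18, 0.10 and -0.16 in the carcinoma pairs and 1.37, 1.29 and 1.09 in the adenoma pairs, beside Epas1 changes of 1.20, 0.32 and -0.19 in carcinoma pairs and 1.47, 0.95 and 0.16 in adenoma pairs. The part of vessel content in these values was not tested.

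The 4 early arrays of mice 2201, 1755, 1803 and 1805 carry submitter sample numbers between 155 and 255, and the 8 other arrays numbers between 319 and 379. The late and early arrays of all 3 adenoma pairs lie in different ranges, so in adenoma tumors the time point and the number range cannot be told apart. A term for the split takes its size from mouse 2201 against mice 3407 and 3413 alone, and with it the Epas1 value in adenoma tumors was -0.278. Within the 2 pairs whose arrays share the higher number range, mice 3407 and 3413, Epas1 changed by 0.32 and -0.19. The labels do not say what these numbers record.

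The sensor Egln3, itself a hypoxia target, had 11.97, 12.08 and 12.17 in late carcinoma biopsies and 11.90, 12.47 and 12.77 in late adenoma biopsies. Early biopsies had 12.27, 11.95 and 11.93 in carcinoma mice and 12.25, 12.36 and 11.95 in adenoma mice. Late arrays of mice 1803 and 1805 were the top ones and the groups overlapped otherwise, with a late difference of -0.30 ± 0.221 (adjusted p = 0.612, limma) and of -0.11 without mouse 1805. Egln1, the main prolyl hydroxylase of the factor, ranged from 10.13 to 10.47 in late carcinoma and from 10.29 to 10.96 in late adenoma biopsies, a difference of -0.33 ± 0.172 (adjusted p = 0.473) and of -0.15 without mouse 1805.

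The 12 other hypoxia-responsive members moved in opposite ways in single tumors. All 12 were higher late in mouse 1805 and 11 of 12 were lower late in mouse 1755, although both tumors were adenomas. The list's median change was -0.10, 0.05 and -0.01 in the carcinoma pairs and -0.51, 0.07 and 0.86 in the adenoma pairs. Bnip3, a mitochondrial outer membrane protein that starts the removal of mitochondria, had 9.87, 9.88 and 11.26 in late carcinoma biopsies and 9.70, 11.64 and 11.79 in late adenoma biopsies. Early biopsies had 10.47, 10.63 and 10.84 in carcinoma mice and 11.18, 11.39 and 10.66 in adenoma mice. The late arrays fell into a low group of mice 2201, 3407 and 1755 and a high group of mice 3413, 1803 and 1805, with 2 carcinomas in the low and 1 in the high group. Late carcinoma minus late adenoma was -0.71 ± 0.552 (adjusted p = 0.641, limma), and leaving out mouse 1755 made it -1.38 (unadjusted p = 0.00875, adjusted p = 0.385). It was -0.33 without mouse 1805 (unadjusted p = 0.567), -0.41 without mouse 1803 and -0.47 without mouse 2201. The second Bnip3 probe set followed the first at r = 0.990. Bnip3l, its relative, lay between 12.84 and 13.49 on the late arrays, with the same 3 tumors of mice 3413, 1803 and 1805 on top.

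Hilpda, which coats lipid droplets and holds back their breakdown, had 8.35, 8.49 and 8.36 in late carcinoma biopsies and 8.55, 8.76 and 10.91 in late adenoma biopsies. Its early levels were 8.72, 8.46 and 8.41 in carcinoma mice and 9.26, 8.47 and 8.28 in adenoma mice. Mouse 1805 was higher late by 2.63, and the other 5 changes lay between -0.71 and 0.28. Each late carcinoma array lay below each late adenoma array, with a difference of -1.0 ± 0.565 (adjusted p = 0.502, limma) that became -0.25 (adjusted p = 0.999) without mouse 1805. Adm, the vasodilator peptide adrenomedullin, had 8.45, 8.63 and 8.91 in late carcinoma biopsies and 8.39, 8.94 and 10.60 in late adenoma biopsies. Early biopsies had 8.82, 8.56 and 9.10 in carcinoma mice and 9.35, 8.59 and 8.25 in adenoma mice. Mouse 1805 was higher late by 2.35 and mouse 1755 lower by 0.96, and the late difference between the pathologies was -0.65 ± 0.537 with mouse 1805 and 0.00 without it.

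The collagen prolyl hydroxylase subunits P4ha1 and P4ha2 were also high in the late biopsy of mouse 1805. P4ha1 had 9.87, 9.83 and 10.32 in late carcinoma biopsies and 9.87, 10.21 and 10.73 in late adenoma biopsies. Early arrays gave 9.77, 9.76 and 10.41 in carcinoma mice and 10.04, 9.48 and 9.84 in adenoma mice. It was higher late in mice 1803 and 1805, by 0.73 and 0.89, and lower in mouse 1755, with a mean in adenoma of 0.48 ± 0.195 (unadjusted p = 0.0437, adjusted p = 0.262, limma) and of 0.28 without mouse 1805. P4ha2 ranged from 8.18 to 8.83 in late carcinoma and from 8.24 to 9.34 in late adenoma biopsies, and its change in mouse 1805 was 1.34. Ndrg1, a stress-responsive gene of epithelial differentiation, was higher late in 5 of 6 pairs, mouse 2201 being the exception, by up to 1.01 in mouse 1805.

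Ankrd37, an ankyrin repeat protein, had 7.74, 7.89 and 8.50 in late carcinoma biopsies and 8.03, 8.72 and 9.65 in late adenoma biopsies. Early biopsies had 7.79, 8.42 and 8.35 in carcinoma mice and 8.73, 8.90 and 8.83 in adenoma mice. Carcinoma mice lay below adenoma mice in the early biopsies, and in the late ones mouse 3413 lay inside the adenoma range, with carcinoma minus adenoma at -0.76 ± 0.355 late (adjusted p = 0.439, limma) and -0.63 ± 0.355 early (adjusted p = 0.505, limma). Without mouse 1805 the late value was -0.34. Ddit4, an inhibitor of the growth kinase mTOR, had 11.39, 11.29 and 11.51 in late carcinoma biopsies and 11.08, 11.75 and 11.63 in late adenoma biopsies. Early arrays read 11.46, 11.17 and 11.51 in carcinoma mice and 11.61, 11.67 and 11.15 in adenoma mice. Its mean changes were 0.02 in carcinoma and 0.01 in adenoma tumors (-0.23 without mouse 1805), but single tumors ran from -0.53 in mouse 1755 to 0.48 in mouse 1805.

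Kdm3a, a histone demethylase induced by hypoxia, had 10.59, 10.40 and 10.89 in late carcinoma biopsies and 10.14, 10.97 and 10.79 in late adenoma biopsies. On early arrays it had 10.33, 10.54 and 10.49 in carcinoma mice and 10.62, 10.95 and 10.48 in adenoma mice. Late carcinoma minus late adenoma was -0.01 ± 0.212, and 0.07 without mouse 1805. Bhlhe40, a repressor linked to hypoxia and the circadian clock, had 11.33, 11.11 and 10.88 in late carcinoma biopsies and 10.87, 11.17 and 11.71 in late adenoma biopsies. The early levels were 10.93, 10.86 and 10.94 in carcinoma mice and 11.08, 11.36 and 11.27 in adenoma mice. The early carcinoma arrays lay below the early adenoma arrays, with a difference of -0.33 ± 0.189 (adjusted p = 0.52, limma), and the late arrays overlapped. Mxi1, an antagonist of Myc, was lower late in the 3 carcinoma pairs by no more than 0.13 and higher in mouse 1805 by 0.48.

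Between the pathologies, the late biopsies had lower levels of most of the set in carcinoma. Of 37 members 32 were lower and 5 higher (Ldhb, Aldoc, Pfkm, Hk1 and Eno2), with a median difference of -0.24, while 45.8% of all genes were lower and their median was 0.02. The other probe set of Hk1 gave a late difference of -0.45. It read 10.54, 10.48 and 10.59 in late carcinoma and 10.90, 10.53 and 11.52 in late adenoma biopsies, the last in mouse 1805. No member was called by limma, as was the case for 0% of all genes. At an unadjusted p under 0.05, 6 members were lower in carcinoma (Aldoa, Pdk1, Pfkl, Pgk1, Slc2a1 and Tpi1), a share of 16.2% against a background of 5%, and 1 was higher (Ldhb; background 6.74%). Every late carcinoma array lay below every late adenoma array for 2 members, Slc2a1 and Hilpda (background 6.12%), and above for 1, Ldhb (background 8.77%). These shares depend on single mice and on the fit. With the 6 late arrays fitted alone, 0 members were lower and 1 higher at that p, beside 3.21% and 4.53% of all genes. The 6 members lower at that p became 0 when mouse 1805, 2201 or 3407 was left out, 4 without mouse 1803, 8 without mouse 3413 and 16 without mouse 1755. Without mouse 1805 the median difference was -0.056, with 26 members lower and 11 higher, and without mouse 1755 it was -0.406.

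**Figure D3:**
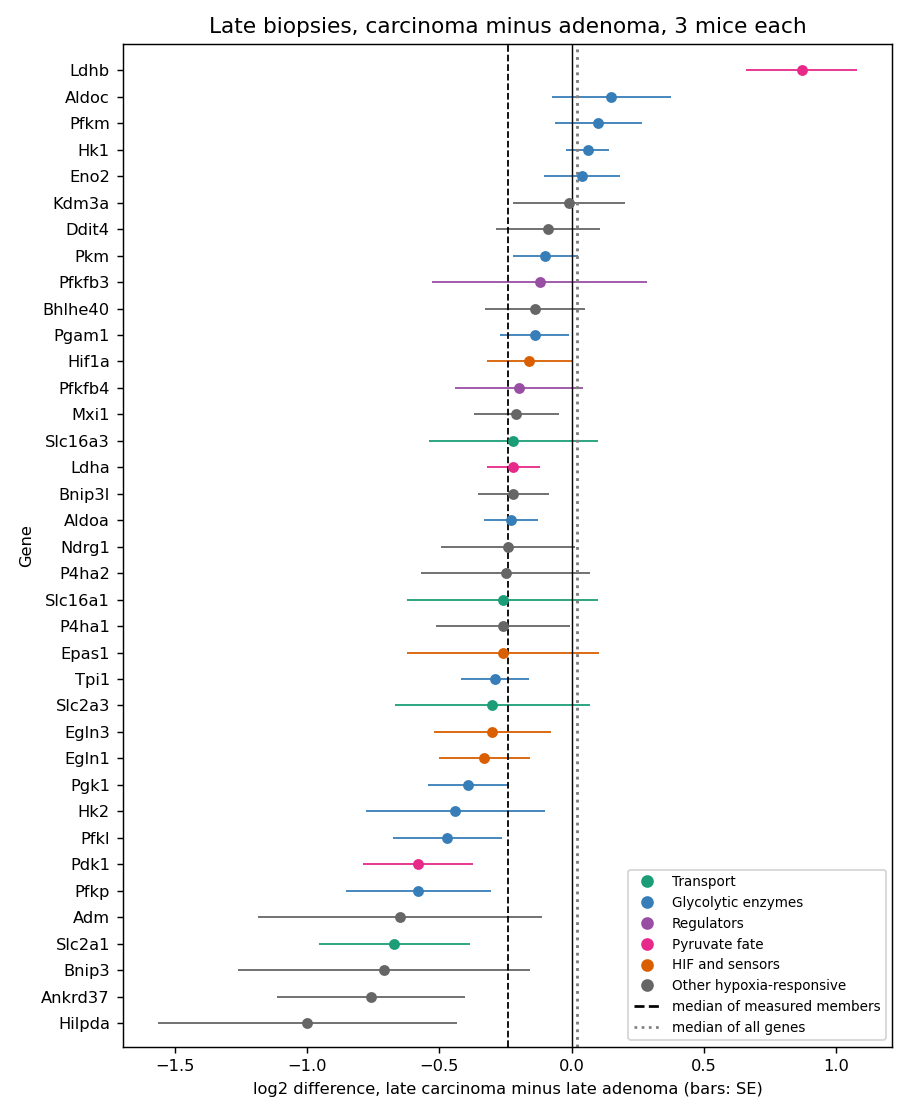
Difference between late carcinoma and late adenoma biopsies for each measured member (log2, points, with the limma SE as bars, 3 mice per group), sorted by size and coloured by role, with the median of the members (dashed) and of all genes (dotted). Of the 37 points 32 lie below 0, and Ldhb stands alone at 0.87.

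In the early biopsies, grouped by what the tumor later became, 23 members were lower and 14 higher in carcinoma than in adenoma mice. Their median was -0.09 against 0.04 over all genes, and -0.163 without mouse 1805. By limma 0 members were called, as were 0% of all genes, and 0 had an unadjusted p under 0.05, beside a background of 12%. With the 6 early arrays fitted alone, 1 member was higher and 4 were lower at that p, beside 6.64% and 5.09% of all genes. The groups did not overlap for 6 members (Ankrd37, Bhlhe40, Bnip3l, Pdk1, Slc2a1 and Tpi1), each lower in carcinoma mice, a share of 16.2% against 18.1% of all genes. Highest among the carcinoma mice relative to adenoma mice was Slc2a3, at 0.63 ± 0.368 (adjusted p = 0.522). Of the early carcinoma arrays those of mice 3407 and 3413 belong to the higher range of sample numbers and all early adenoma arrays to the lower one, so this split and the pathology are partly confounded in the early biopsies, while all late arrays lie in 1 range.

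The change from early to late was more negative in carcinoma than in adenoma tumors for 29 of 37 members, with a median difference of -0.17 against -0.01 over all genes. Limma called 0 members for this difference, beside 0% of all genes, and 2 members, Ldhb and Slc2a3, had an unadjusted p under 0.05, beside a background of 7.04%. Without mouse 1755, 1 member was higher and 9 were lower at that p, beside 3.33% and 3.24% of all genes. In carcinoma tumors alone the median change was 0.00 with 19 members higher and 18 lower, and in adenoma tumors 0.16 with 29 higher and 8 lower. Leaving out mouse 1805 turned the adenoma median to -0.096, with 14 members higher and 23 lower, and the median of the difference to 0.086. Leaving out mouse 1755 moved them to 0.325 and -0.36. Over all tumors the median change was 0.07, and -0.038 without mouse 1805.

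**Figure D4:**
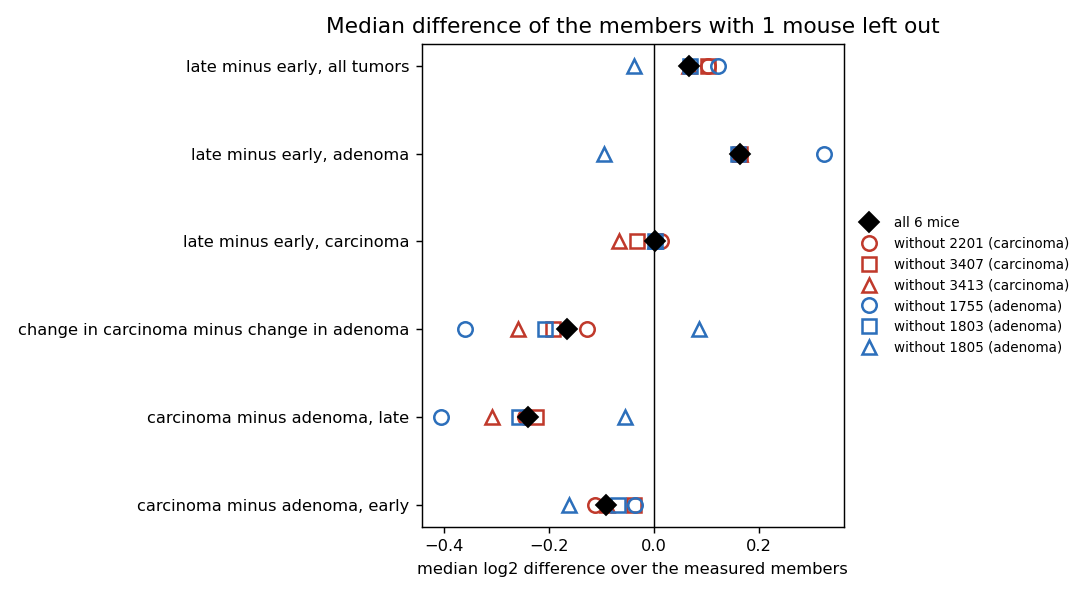
Median log2 difference over the 37 measured members in each of the 6 comparisons (rows), with all 6 mice (black diamonds) and with 1 mouse left out (open symbols, carcinoma mice red, adenoma mice blue). Leaving out mouse 1805 moves the adenoma change to -0.096 and the late difference to -0.056, and leaving out mouse 1755 moves them to 0.325 and -0.406.

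Other genes of these pathways were read beside the set. Of 34 measured further hypoxia targets, 18 were higher late in carcinoma tumors, with a median of 0.02, and at an unadjusted p under 0.05 1 was higher and 1 lower, beside 1.7% and 2.61% of all genes. In adenoma tumors 27 were higher late, with a median of 0.34, and at that p 13 were higher and 1 lower, beside 7.38% and 10.7% of all genes. Of all genes 47.2% were higher late there, with a median of -0.01. By pair, 21, 24 and 30 of the 34 were higher late in mice 1755, 1803 and 1805. Their medians were 0.06, 0.27 and 0.73, so the shift was largest in mouse 1805. In late biopsies 28 of the 34 were lower in carcinoma than in adenoma (median -0.15), as were 45.8% of all genes, and 6 were lower at that p, beside 5% of all genes. None of them passed the adjusted threshold in limma. Car9, the membrane carbonic anhydrase used as a tissue marker of hypoxia, stood at 9.22, 8.32 and 9.52 in late carcinoma biopsies and 10.12, 10.00 and 11.23 in late adenoma biopsies. Early biopsies had 9.40, 8.68 and 9.25 in carcinoma mice and 10.05, 9.13 and 9.38 in adenoma mice. Each late carcinoma array lay below each late adenoma array, with a difference of -1.43 ± 0.401 (unadjusted p = 0.00487, adjusted p = 0.401, limma). Vegfa, the vascular growth factor, had 10.13, 10.33 and 10.23 in late carcinoma biopsies and 10.01, 10.71 and 11.49 in late adenoma biopsies, and changed by -0.28, -0.04 and -0.08 in carcinoma and by -0.55, 0.28 and 1.48 in adenoma pairs, the spread seen in the set itself. Stc2, a secreted glycoprotein, and Fam162a, a mitochondrial protein, were also lower in late carcinoma biopsies, with differences of -1.09 ± 0.28 and -0.46 ± 0.156 (adjusted p = 0.401 and 0.401).

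Lox, which crosslinks collagen, Stc1, a secreted glycoprotein, and Flt1, an endothelial receptor for Vegfa, had the smallest p values of that list in adenoma tumors. Lox changed by 1.43, 0.29 and -0.07 in the carcinoma pairs and by 1.49, 3.08 and 2.38 in the adenoma pairs. Stc1 changed by 0.04, 0.36 and -0.27 in carcinoma and by 0.94, 1.18 and 0.98 in adenoma pairs. For Flt1 the changes were 0.80, 0.13 and -0.02 in carcinoma and 0.93, 1.68 and 1.18 in adenoma pairs. The adenoma means were 2.32 ± 0.359 for Lox, 1.03 ± 0.125 for Stc1 and 1.26 ± 0.193 for Flt1, with adjusted p of 0.0714, 0.0572 and 0.0707 by limma. All 3 genes were higher late in mouse 1755, where 27 of 37 members were lower. The 10 fibroblast markers had a median change of 1.10 in that mouse and the 11 endothelial markers one of 1.37, and their part was not tested.

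Of 11 measured genes that govern the entry of pyruvate into mitochondria, 6 were lower late in carcinoma tumors (median 0.00, 0 at an unadjusted p under 0.05) and 9 in adenoma tumors (median -0.26). In adenoma tumors 6 were lower and 1 higher at that p, beside 10.7% and 7.38% of all genes. Pdp2, a phosphatase that activates pyruvate dehydrogenase, had a mean change of -0.72 ± 0.124 in adenoma tumors (adjusted p = 0.0866, limma), with pair changes of -0.37, -0.75 and -1.03. The inhibitory kinases Pdk4 and Pdk2 had means of -1.17 ± 0.344 and -0.38 ± 0.117 there (-0.23 for Pdk2 without mouse 1805), with pair changes of -2.01, -1.37 and -0.13 for Pdk4 and -0.28, -0.18 and -0.69 for Pdk2. In late biopsies 7 of the 11 were lower in carcinoma, 1 at an unadjusted p under 0.05, namely Pdk2 at -0.47 ± 0.207, while Pdha1, a subunit of pyruvate dehydrogenase, and Pdp2 gave -0.19 and 0.38 (0.19 for Pdp2 without mouse 1805).

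The 17 measured further isoforms of glycolytic genes had a median of -0.03 in adenoma tumors, 10 of them lower, and of -0.11 in late carcinoma against late adenoma. Eno3, the muscle enolase, was lower late in all 6 pairs, with changes of -0.31, -0.36 and -0.19 in carcinoma and -0.55, -0.46 and -0.18 in adenoma pairs, with an adenoma mean of -0.40 ± 0.0921 (adjusted p = 0.119, limma). Eno3 was at 9.33, 9.27 and 9.56 in late carcinoma biopsies and 9.52, 10.28 and 11.67 in late adenoma biopsies, a difference of -1.10 ± 0.452 and of -0.51 without mouse 1805. Pklr, the liver and red cell pyruvate kinase, was lower in every late carcinoma array, 10.48, 10.30 and 10.52, than in every late adenoma array, 10.84, 10.65 and 10.96 (difference -0.38 ± 0.0976, adjusted p = 0.401). Adpgk, an ADP-dependent glucokinase, was higher in late carcinoma, by 0.36 ± 0.137 (0.20 without mouse 1805), and Hk3, the leukocyte hexokinase, changed by 0.09, 0.08 and 0.51 in adenoma pairs.

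Of 8 gluconeogenic genes, 5 were lower late in adenoma tumors (median -0.02) and 6 lower in late carcinoma than in late adenoma biopsies (median -0.04). Pcx, pyruvate carboxylase, was lower late in all 6 pairs, with changes of -0.41, -0.39 and -0.37 in carcinoma and -0.64, -0.64 and -0.18 in adenoma pairs (adjusted p = 0.108 in adenoma, limma). Fbp2, the muscle fructose bisphosphatase, was at 9.81, 9.39 and 9.54 in late carcinoma biopsies and 10.23, 10.22 and 10.72 in late adenoma biopsies, a difference of -0.81 ± 0.232 (adjusted p = 0.401). Pck1, the gluconeogenic carboxykinase, had an adenoma mean of -0.84 ± 0.397 that came mostly from mouse 1805, at -2.19, and was -0.16 without it. Fbp1, of liver and kidney, and G6pc3, the general glucose phosphatase subunit, gave 0.20 in adenoma tumors and 0.18 in late carcinoma against late adenoma, and 0.07 and 0.02 without mouse 1805.

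The 9 regulators of the factors had a median of -0.01 in adenoma tumors and of -0.06 in late carcinoma against late adenoma. Arnt, the stable partner subunit, was higher late by 0.20 ± 0.0742 in adenoma tumors, with pair changes of 0.25, 0.19 and 0.15 (unadjusted p = 0.0331). Hif3a, an alpha subunit that can act as an inhibitor, had 6.56, 6.65 and 6.77 in late carcinoma biopsies and 6.84, 7.13 and 7.79 in late adenoma biopsies. The late difference was -0.59 ± 0.201, and -0.32 without mouse 1805. It changed by 0.20, 0.15 and 0.87 in adenoma pairs, a mean of 0.41 ± 0.151 that was 0.17 without mouse 1805. Arnt2, a partner subunit known from neurons, was higher in late carcinoma arrays, 9.63, 9.93 and 9.68, than in late adenoma arrays, 9.14, 9.51 and 8.43, by 0.72 ± 0.229 (adjusted p = 0.401, limma) and by 0.42 without mouse 1805. Cited2, which competes with the factors for a coactivator, was at 10.57, 10.48 and 10.67 in late carcinoma and 10.57, 10.84 and 11.76 in late adenoma biopsies, and mouse 1805 was again the highest.

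Cell type markers also changed in the same tumors, not all in the direction of the members. In mouse 1805, where the members' median change was 0.51, all 12 neutrophil markers were higher late (median 2.44), both measured erythroid markers were higher (median 4.03), and all 9 proliferation markers were lower (median -0.37). In mouse 2201, where the members' median change was -0.13 and that of all genes -0.09, all 12 neutrophil markers were lower (median -0.63) and all 9 proliferation markers lower (median -0.22). The neutrophil markers thus ran in the direction of the members in both tumors, while the proliferation markers were lower in both. All 11 endothelial markers were higher late in mouse 2201 (median 1.18), against the direction of most members. In mouse 1755 the members were lower late, at -0.21, while 11 of 12 neutrophil markers were higher (median 0.94) and 10 of 11 endothelial markers were higher (median 1.37). The summed level of the 12 neutrophil markers lay between 12.15 and 12.95 in late carcinoma and between 12.67 and 14.60 in late adenoma biopsies. For the 9 proliferation markers it lay between 14.56 and 14.76 in late carcinoma and between 13.88 and 14.58 in late adenoma biopsies. All 10 epithelial markers were lower in late carcinoma than in late adenoma (median -0.25), and all 9 proliferation markers were higher (median 0.40). In the early biopsies 9 of 10 epithelial markers were lower in carcinoma mice (median -0.24) and all 9 proliferation markers were higher (median 0.39), where the members had a median of -0.09. Macrophage and smooth muscle markers had median changes of 1.33 and 0.96 in mouse 2201, against -0.46 and -0.58 in mouse 1805. The part of any of these in the members' values was not tested.

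**Figure D5:**
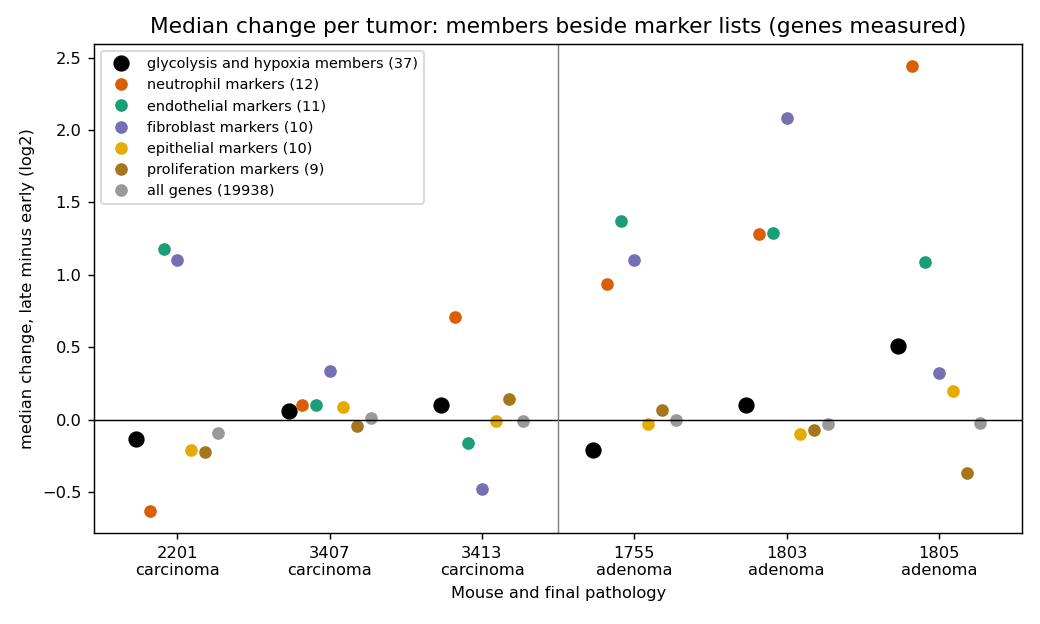
Median change from early to late (log2) of the 37 measured members (black), of marker lists (coloured) and of all 19938 genes (grey) in each tumor, carcinoma mice left of the line and adenoma mice right of it. In mouse 1805 the members reach 0.51 beside neutrophil markers at 2.44, and in mouse 1755 they lie at -0.21 beside neutrophil markers at 0.94.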

How the data were processed

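The authors deposited 1 value per probe set and array, read here as log2 intensities from their range, with 35557 probe sets; the summarisation and normalisation behind them are not given in the sources used here. Per the labels' protocols, biopsies were kept in RLT buffer or RNALater, with no record of the buffer per biopsy. Of the probe sets 21789 carry 1 symbol, 1621 several and 12147 none. Values were used without further scaling or filter on dim genes. Limma 3.58.1 in R 4.3.3 (lmFit, eBayes, 2-sided, Benjamini-Hochberg over 19938 genes) compared late with early with mouse as a fixed block, over all tumors and per pathology in 1 fit, and carcinoma with adenoma in a fit of 4 groups with mouse as a random block (consensus correlation 0.286). The replicate is the mouse. The pairing comes from the animal. Arrays of 1 mouse correlated at 0.110 to 0.527 after removing the mean of each time point. The lowest value was that of mouse 2201, whose early array correlated more with the late array of another mouse. Each other early array correlated most with the late array of its own mouse. The rule named all called members, else the 4 per direction with the smallest unadjusted p, with per-array values for these and 11 listed genes, and up to 3 genes per pathway list plus Car9 and Vegfa; Hilpda, Adm and members given only as ranges were described after their values were seen. The fits were tested on simulated data. The members and all lists were chosen with earlier results of these data known. Alternatives were other normalisations, probe rules, priors, blocks, a sex term, a sample number term and leaving out each mouse. Members' promoters came from RefSeq on GRCm38.p6.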

Additional observations from a re-analysis of the deposited data

Results flagged for a closer look

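Over the 6 tumors, each member's highest and lowest change from early to late was set against the other changes by Dixon's test, for 37 members. Hilpda stood out: in mouse 1805, an adenoma, it was higher late by 2.63, while the other changes lay between -0.71 and 0.28. The gap to the nearest tumor was 0.703 of the whole range, above the critical value of 0.625. Chance flags about 1 in 20 such groups, and 1 of 37 was flagged.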

How the results depend on the processing

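The medians over the members moved by less than the spread between mice in 88 of 88 recalculations. That spread includes the mouse left out, and some settings cannot move a median, so this count says little about stability. With 1 mouse left out the medians ranged from -0.038 to 0.121 for all tumors, -0.096 to 0.325 in adenoma and -0.066 to 0.014 in carcinoma. They ranged from -0.36 to 0.086 for the difference of changes, -0.406 to -0.056 in late biopsies and -0.163 to -0.037 in early ones. The ends were set mainly by mice 1805 and 1755. Each mouse has 1 late and 1 early array, so the choice of replicate block cannot change the late minus early medians. They were 0.066 over all tumors, 0.163 in adenoma and 0.002 in carcinoma with a fixed, a random or no replicate block. Without a block, or with a random one, 0 members were called. The count of members called stayed at 0 in 87 of 88 recalculations. The exception was late carcinoma against late adenoma without replicate 1803, where 1 member was called among 395 genes: Ldhb, at 1.116. Of the recalculated values of named genes, 11 reversed, 1 passed the threshold (Ldhb, as above) and 692 kept their direction and their side of the threshold. With the mean of its probe sets, Hk1 gave 0.075 over all tumors, 0.117 in adenoma, -0.084 for the difference of changes and -0.194 in late biopsies. With the sample number as a term, Hk1 gave 0.028 over all tumors, Epas1 -0.278 and Slc16a1 0.865 in adenoma, and Eno2 -0.038 and Slc16a1 0.25 in early biopsies. Pfkm in late biopsies gave -0.025 without replicate 1805 and -0.069 without replicate 2201, in a range up to 0.199. The sample number term takes its size from mouse 2201 against mice 3407 and 3413, and all 3 adenoma pairs cross the number ranges. For Hk1 the probe sets disagree; for the others the cause was not tested. With 3 mice per pathology, differences of the size seen in single tumors could not be separated from the spread between mice.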
